A study of Danio rerio with 9 samples.

Results

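Histone variant genes encode the histones that can be placed on chromatin outside DNA replication, and their transcripts were followed here in single primordial germ cells (PGCs) of the zebrafish. The genes were chosen by symbol: those of histone H3.3 (h3f3a, h3f3b.1, h3f3c and h3f3d), of H2A.X (h2afx), of H2A.Z (h2afva and h2afvb) and of the linker histone H1.0 (h1f0). Of these 8 symbols, 7 were found among the 32266 genes measured, and they covered 9 genes because 3 gene identifiers carried the symbol h3f3b.1. No gene carried the symbol h3f3a. A newer name table calls ENSDARG00000020504, 1 of the 3 genes listed as h3f3b.1, h3f3a, keeps h3f3b.1 for ENSDARG00000068434, and calls ENSDARG00000068436 si:ch1073-429i10.3. The 3 genes are therefore told apart by identifier below.

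PGCs, the founders of sperm and eggs, were taken from AB strain zebrafish at the shield stage (6 hpf, hours post fertilization), at the 3-somite stage (11 hpf) and at prim-5 (24 hpf), with 3 cells per stage and 9 cells in all. All fish carried the transgene kop-egfp-nanos3-3ʹUTR, in which a germline promoter and the nanos3 3ʹUTR direct green fluorescence to PGCs, and single cells were picked by that fluorescence, from whole embryos at 6 and 11 hpf and from minced trunk at 24 hpf. Each cell's RNA was amplified by the Smart-seq2 method, which copies whole transcripts, and sequenced as its own library, named by stage and replicate from 6_1 to 24_3. All 3 cells of any stage were taken from the same embryo. A stage is therefore 1 sample, embryo and stage cannot be told apart, and no difference was tested.

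In the nucleosome, DNA is wrapped around the core histones H2A, H2B, H3 and H4, and linker histone H1 binds where the DNA enters and leaves. Most histone protein is made in S phase from clustered genes whose transcripts end in a stem-loop in place of a poly(A) tail. Histone variants are for the most part, but not always, made throughout the cell cycle from polyadenylated transcripts. H3.3 is laid down by the chaperones HIRA, ATRX and DAXX at active genes and at repeats, and it also refills paternal chromatin in many animals after fertilization. H2A.Z sits at promoters, H2A.X is phosphorylated beside DNA breaks, and H1.0 gathers, in mammals, in cells that divide slowly or have differentiated.

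Levels are FPKM, fragments per kilobase of transcript and per unit of mapped fragments in the library, a measure that allows levels of different genes to be set side by side. A difference between stages is log2 of the later mean FPKM plus 1 minus the same for the earlier stage. Its spread combines the SDs of log2(FPKM+1) among the cells of both stages, as the square root of the sum of their squares. A gene is called past 2-fold where that difference exceeds 1 in size, and its cells are called apart where no cell of one stage lies within the range of the other. Genes with no FPKM in a cell are said to be listed at 0, because a transcript that escaped amplification would look the same as an absent one.

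The filter on low values, FPKM 1 or more in 3 or more cells, left 9329 genes, among them all 9 histone variant genes. h1f0 passed only through the 24 hpf cells, the stage where it was highest. It is counted as higher past 2-fold in each comparison below, and between 6 and 24 hpf also as apart. Its part in these counts therefore supports nothing by itself. Between 6 and 11 hpf it is the 1 gene counted as higher, through 11_2 alone. Between 6 and 11 hpf, 1 of the 9 genes was higher and 0 were lower past 2-fold, against 21.7% and 21.8% of all 9329 genes and 43.5% in either direction. The cells were apart for 0 higher and 2 lower genes, against 5.78% and 6.96% of all genes and 12.7% in either direction, and none of the 9 met both criteria, which 4.89% and 6.19% of all genes did. Between 11 and 24 hpf, 2 genes were higher and 2 lower past 2-fold, against 26.1% and 31.5% of all genes and 57.6% in either direction. These counts are at or below the shares among all genes. Here the cells were apart for 1 higher and 1 lower gene, both also past 2-fold. Among all genes the cells were apart for 8.62% higher and 10.2% lower, 18.8% in all, and both criteria were met by 7.89% and 9.79%. Between 6 and 24 hpf, 3 of the 9 were higher and 2 lower past 2-fold, against 27.5%, 33.3% and 60.8% of all genes in either direction. The cells were apart for all 5. Among all genes they were apart for 10.4% higher and 14.6% lower, 25.1% in all, and both criteria were met by 9.83% and 14.2%. The median difference of the 9 genes was 0.23, 0.33 and 0.48 for the 3 comparisons in this order, and that of all genes was 0.03, -0.08 and -0.10. The comparisons share stages and are not independent of each other.

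**Figure D1:**
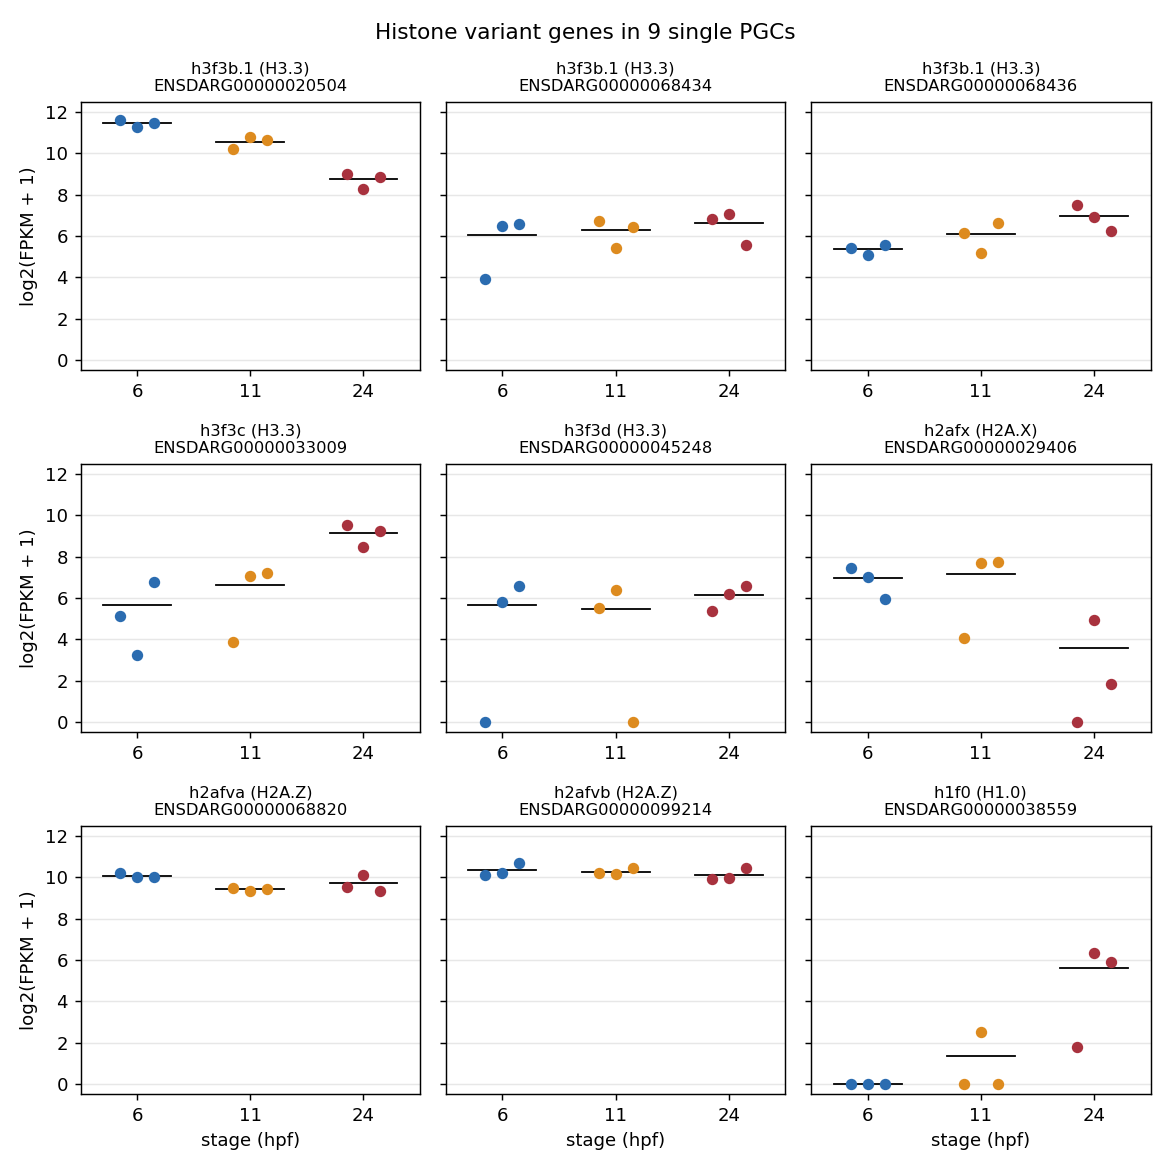
Level of each of the 9 histone variant genes, as log2(FPKM + 1), in every cell (points) at 6, 11 and 24 hpf, with 1 panel per gene and a black line at the log2 of the stage mean FPKM plus 1. The points of h3f3b.1 ENSDARG00000020504 stepped down at each stage, those of h3f3c lay highest at 24 hpf, and those of h2afva and h2afvb stayed near the top of the scale throughout.

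The H3.3 genes differed most from each other. The gene listed as h3f3b.1 with identifier ENSDARG00000020504 was the most abundant of the 9 genes at 6 hpf and was lower at each later stage. Its FPKM was 3125, 2508 and 2816 in the 6 hpf cells, 1192, 1762 and 1585 in the 11 hpf cells, and 513, 309 and 469 in the 24 hpf cells. No cell of one stage lay within the range of another. The stage means were 2816 ± 309, 1513 ± 292 and 430.5 ± 107 (SD, n = 3 cells of 1 embryo). The mean at 6 hpf was 1.86 times that at 11 hpf, with a log2 difference of -0.90 and a spread of 0.33. The mean at 11 hpf was 3.51 times that at 24 hpf, with a log2 difference of -1.81 and a spread of 0.49. Over the whole interval the level was 6.54-fold lower at 24 hpf, with a log2 difference of -2.71 and a spread of 0.42. Among all genes ordered by stage mean, h3f3b.1 ENSDARG00000020504 held rank 7 at 6 hpf, rank 14 at 11 hpf and rank 184 at 24 hpf.

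The gene h3f3c (ENSDARG00000033009), another H3.3 gene, went the other way. Its FPKM was 33.7, 8.60 and 107 in the 6 hpf cells, 13.5, 132 and 148 in the 11 hpf cells, and 753, 352 and 597 in the 24 hpf cells. All 24 hpf cells lay above all earlier cells, while the 6 and 11 hpf cells overlapped. The means were 49.9 ± 51.4, 98.0 ± 73.6 and 568 ± 202 (SD, n = 3 cells of 1 embryo). From 6 to 11 hpf the difference was 0.96, within its spread of 2.58. The mean at 24 hpf exceeded that at 11 hpf 5.79-fold and that at 6 hpf 11.4-fold, with log2 differences of 2.52 (spread 1.98) and 3.48 (spread 1.84). Its rank among all genes moved from 2137 at 6 hpf to 1165 at 11 hpf and 112 at 24 hpf. Cells apart in this direction were found in 8.62% of all genes between 11 and 24 hpf and in 10.4% between 6 and 24 hpf. The study measured selected genes by single-cell qPCR and reported that the results matched its sequencing closely. The qPCR level of h3f3c was not read here. Of the 9 genes, h3f3c was the only one for which the study listed a pair of qPCR primers, shown here 5′ to 3′ because h3f3c was the H3.3 gene with the highest mean at 24 hpf.
h3f3c forward primer: tcaagaaaccccatcgctac
h3f3c reverse primer: aacagacccaccaggtatgc

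Levels of both H3.3 genes can be set against each other within a cell, where differences between libraries in scale drop out. The ratio of h3f3b.1 ENSDARG00000020504 to h3f3c was 92.8, 292 and 26.2 in the 6 hpf cells and 88.3, 13.3 and 10.7 in the 11 hpf cells. In the 24 hpf cells it was 0.682, 0.878 and 0.785. Every earlier cell thus held at least 10.7 times as much of the former, and every 24 hpf cell held more of the latter.

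The remaining H3.3 genes had lower levels. h3f3b.1 ENSDARG00000068436 had an FPKM of 41.5, 33.2 and 45.6 in the 6 hpf cells, 69.2, 35.0 and 98.8 in the 11 hpf cells, and 181, 118 and 74.2 in the 24 hpf cells. Adjacent stages overlapped, with differences of 0.74 (spread 0.78) and 0.87 (spread 0.98). The 24 hpf cells lay above the 6 hpf cells, with a difference of 1.61 and a spread of 0.68. That difference was 0.87 when 24_1 and 24_2, the cells with muscle transcripts described below, were left out.

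h3f3b.1 ENSDARG00000068434 ranged from 14.2 to 95.3 FPKM at 6 hpf, from 41.8 to 106 at 11 hpf and from 46.5 to 133 at 24 hpf. Its differences of 0.24, 0.33 and 0.57 were all within their spreads of 1.65, 1.06 and 1.71. h3f3d (ENSDARG00000045248) was listed at 0 in 6_1 and in 11_3. In the other cells its FPKM was 54.7 and 94.2 at 6 hpf, 45.3 and 84.0 in the 11 hpf cells, and 40.6, 72.9 and 95.2 in the 24 hpf cells. No stage stood apart for either gene.

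**Figure D2:**
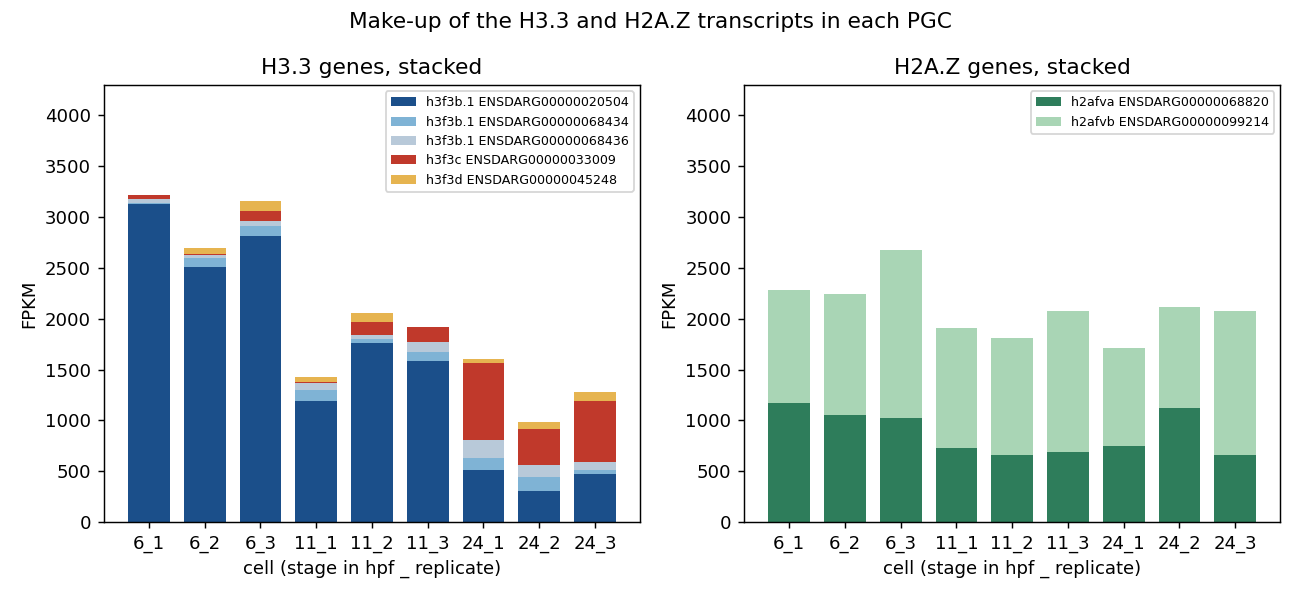
FPKM of the 5 H3.3 genes (left) and the 2 H2A.Z genes (right) stacked in each of the 9 cells, named by stage in hpf and replicate. The H3.3 stack was 2692 to 3215 FPKM at 6 hpf and 986 to 1602 at 24 hpf, where h3f3c filled 35.7% to 47.0% of it, while the H2A.Z stack stood between 1717 and 2674 FPKM in every cell.

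Added up, the 5 H3.3 genes gave 3215, 2692 and 3158 FPKM in the 6 hpf cells, 1426, 2055 and 1918 in the 11 hpf cells, and 1602, 986 and 1282 in the 24 hpf cells. The 6 hpf cells lay above all later cells, and the 11 and 24 hpf cells overlapped. Means were 3022 ± 287, 1799 ± 331 and 1289.8 ± 308 (SD, n = 3 cells of 1 embryo). The summed level was lower at 11 than at 6 hpf by a difference of -0.75 (spread 0.31) and lower at 24 than at 6 hpf by a difference of -1.23 (spread 0.38). From 11 to 24 hpf it differed by -0.48, just beyond the spread of 0.45. On the log2 scale the sum therefore moved less between 11 and 24 hpf than either of its main parts.

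The make-up of this sum turned over. h3f3b.1 ENSDARG00000020504 supplied 93.2% of the stage mean at 6 hpf, 84.1% at 11 hpf and 33.4% at 24 hpf. h3f3c supplied 1.65%, 5.44% and 44.0%. In single 24 hpf cells the h3f3c share was 47.0%, 35.7% and 46.6%, and the share of h3f3b.1 ENSDARG00000020504 was 32.1%, 31.4% and 36.6%. The share of h3f3b.1 ENSDARG00000068436 was 1.33%, 3.76% and 9.66% at the 3 stages, that of ENSDARG00000068434 was 2.17%, 4.32% and 7.58%, and that of h3f3d was 1.64%, 2.40% and 5.39%. Because H3.3 genes are near copies of one another, a read can fit more than 1 of them. How such reads were shared out among them is not given in the sources used here, so the levels of single H3.3 genes are less certain than their sum.

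The differences of both H2A.Z genes between stages, by contrast, all stayed short of 2-fold. h2afvb (ENSDARG00000099214) had an FPKM of 1110.0, 1195 and 1648 in the 6 hpf cells, 1180.3, 1156 and 1387 in the 11 hpf cells, and 968, 992 and 1415 in the 24 hpf cells. The cells of the 3 stages overlapped throughout. Means were 1318 ± 289, 1241 ± 127 and 1125 ± 252 (SD, n = 3 cells of 1 embryo), and all differences, -0.09, -0.14 and -0.23, were within their spreads. h2afvb held rank 21, 20 and 25 among all genes at 6, 11 and 24 hpf.

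h2afva (ENSDARG00000068820) had an FPKM of 1171, 1049 and 1026 in the 6 hpf cells, 729, 657 and 685 in the 11 hpf cells, and 748, 1119.9 and 658 in the 24 hpf cells. The 11 hpf cells lay below the 6 hpf cells, and the 24 hpf cells overlapped both. Means were 1082 ± 77.9, 690.4 ± 35.9 and 842 ± 245 (SD, n = 3 cells of 1 embryo). The difference from 6 to 11 hpf was -0.65 with a spread of 0.13, which is short of 2-fold. Cells were apart in this direction for 6.96% of all genes. The later differences, 0.29 from 11 to 24 hpf and -0.36 from 6 to 24 hpf, were within their spread of 0.41.

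Summed H2A.Z was 2281, 2244 and 2674 FPKM in the 6 hpf cells, 1909, 1813 and 2072 in the 11 hpf cells, and 1717, 2111 and 2074 in the 24 hpf cells. Both later stages lay below the 6 hpf cells, with differences of -0.31 (spread 0.17) and -0.29 (spread 0.22), while 11 and 24 hpf differed by 0.03 within a spread of 0.19. Under other scalings of the libraries this last value was -0.07 and -0.09. The ratio of summed H3.3 to summed H2A.Z was 1.41, 1.20 and 1.18 in the 6 hpf cells, 0.747, 1.13 and 0.925 in the 11 hpf cells, and 0.933, 0.467 and 0.618 in the 24 hpf cells. H3.3 transcripts exceeded those of H2A.Z in every 6 hpf cell, in 11_2 of the 11 hpf cells and in no 24 hpf cell.

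h2afx (ENSDARG00000029406), the gene of the variant that is phosphorylated at DNA breaks, was low at 24 hpf. Its FPKM was 177, 129.9 and 60.7 in the 6 hpf cells and 15.8, 203 and 213 in the 11 hpf cells. At 24 hpf it was listed at 0 in 24_1 and stood at 29.8 in 24_2 and 2.54 in 24_3. The 24 hpf cells lay below all 6 hpf cells but overlapped the 11 hpf cells, since 11_1 was below 24_2. The log2 differences were 0.23 from 6 to 11 hpf (spread 2.24), -3.62 from 11 to 24 hpf (spread 3.27) and -3.39 from 6 to 24 hpf (spread 2.62). With a cell left out, the difference from 11 to 24 hpf ranged from -6.00 (without 24_2) to -3.08 (without 24_1). That from 6 to 24 hpf ranged from -5.77 to -2.85, without the same cells. From 11 to 24 hpf, the values without 24_1 (-3.08), without 24_3 (-3.19) and without 11_3 (-3.23) are smaller in size than the spread of 3.27 over all cells. Those with any other cell left out are larger.

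h1f0 (ENSDARG00000038559), the gene of linker histone H1.0, was seen late. It was listed at 0 in every 6 hpf cell and in 11_1 and 11_3, and its FPKM was 4.77 in 11_2. At 24 hpf its FPKM was 2.40, 80.6 and 59.7. In 24_2 and 24_3 it thus stood above every earlier cell, while 24_1 lay below 11_2. The log2 difference from 11 to 24 hpf was 4.23, with a spread of 2.92, and it was 2.31 with a pseudocount of 10 in place of 1 and 5.60 without 11_2. No fold against 6 hpf is given, since the gene was listed at 0 there.

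**Figure D3:**
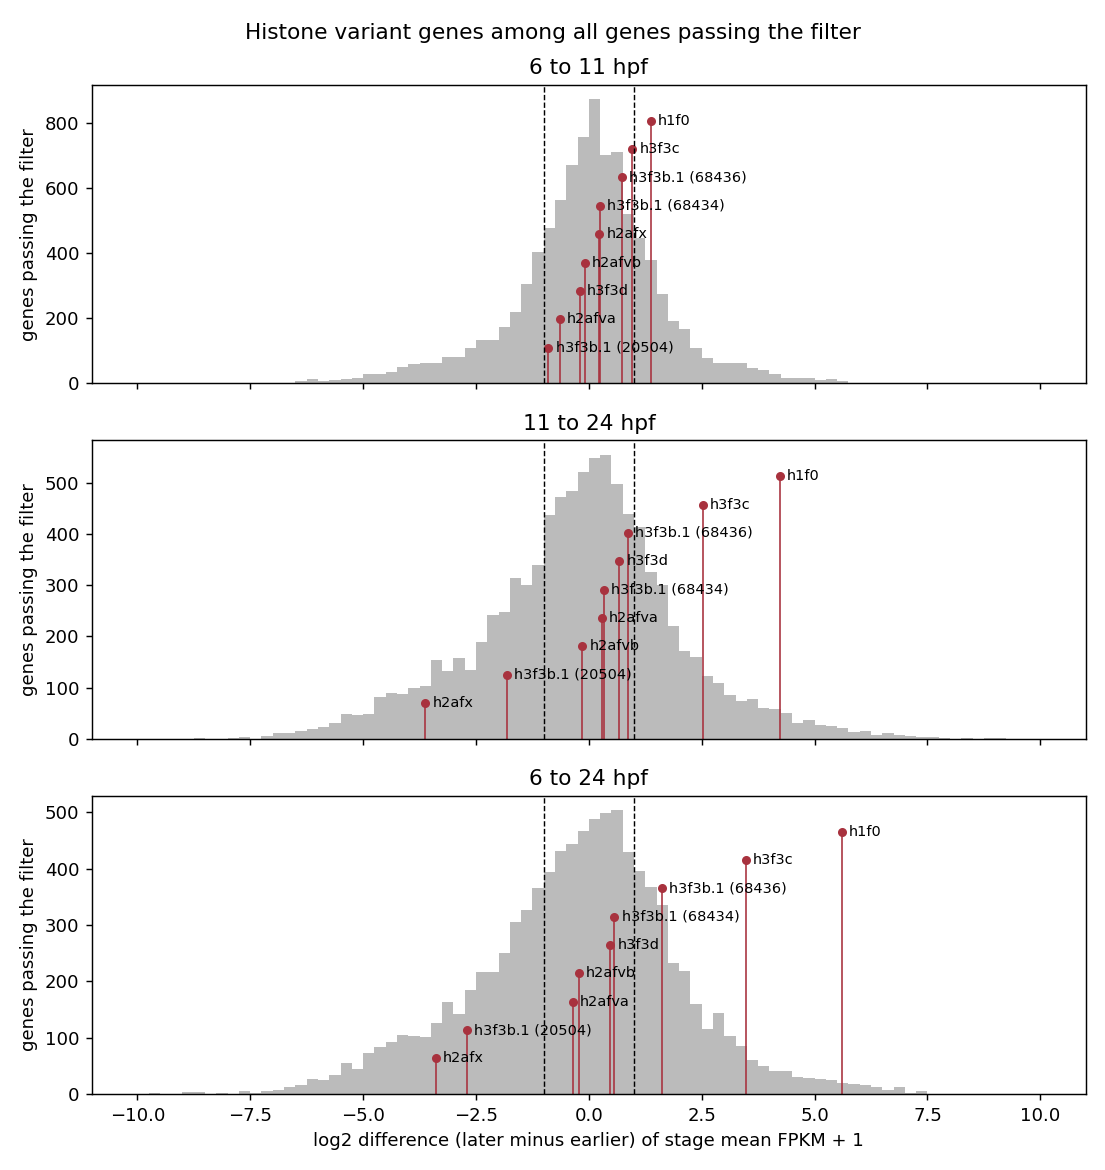
Log2 difference (later minus earlier) of each histone variant gene, marked by name and the end of its identifier, against the number of genes at each difference among all 9329 genes (grey), with 1 panel per comparison. Dashed lines mark 2-fold, and the height of a named line has no meaning. h3f3b.1 ENSDARG00000020504 (-2.71) and h2afx (-3.39) lay to the left between 6 and 24 hpf and h3f3c (3.48) to the right, while h2afva and h2afvb stayed within the dashed lines, and the place of h1f0, listed at 0 at 6 hpf, depends on the pseudocount there.

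In the order of stage means, 3 genes led at 6 hpf, namely h3f3b.1 ENSDARG00000020504, h2afvb and h2afva. The leading gene was above the others in every cell, and the cells of h2afvb and h2afva overlapped. The next gene, h2afx, stood far below, and it overlapped its neighbour in the order, as did the H3.3 genes that followed, down to h1f0, which was listed at 0. At 11 hpf the same 3 genes led, but the ranges of h3f3b.1 ENSDARG00000020504 and h2afvb overlapped, and h2afva lay below both. At 24 hpf h2afvb, h2afva, h3f3c and h3f3b.1 ENSDARG00000020504 followed each other with overlapping neighbours and stood above all others. h2afx came last there, and its cells overlapped those of h1f0.

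The replication-dependent histone genes form the natural counterpart. They were sought by a hist symbol, which does not by itself show that a gene is replication-dependent, and 45 genes with such a symbol passed the filter. From 11 to 24 hpf, 37 of them were lower and 3 higher past 2-fold, with the cells apart for 18 and 2, and their median difference was -1.94. Among all genes in that comparison, 31.5% were lower and 26.1% higher past 2-fold, the cells were also apart for 9.79% and 7.89%, and the median was -0.08. From 6 to 11 hpf, 14 were higher and 2 lower, against 21.7% and 21.8% of all genes, with a median of 0.58 against 0.03. HIST1H4D, HIST1H4E and HIST1H2AL ENSDARG00000051775 passed the filter only with the 11 hpf cells counted. Each counts as lower from 11 to 24 hpf with the cells apart, and HIST1H4D also as higher from 6 to 11 hpf (1.08). Their part in these counts therefore supports nothing by itself. HIST1H4D was 119, 42.9 and 8.43 FPKM in the 11 hpf cells and at most 0.0332 at 24 hpf, with a log2 difference of -5.83. HIST2H2AB ENSDARG00000068995 was an exception, with 250.5, 194 and 219.96 FPKM in the 11 hpf cells and 607, 539 and 455 in the 24 hpf cells. Another was hist2h2l, which was listed at 0 in all cells before 24 hpf except 11_2, and reached 103, 113 and 54.5 FPKM in the 24 hpf cells. It passed the filter only through the 24 hpf cells, where it was highest. Its part in the counts of higher genes therefore supports nothing by itself. Smart-seq2 primes on the poly(A) tail, which most replication-dependent histone transcripts lack, so these values describe only the transcripts that were captured. Copies of these genes are also near identical, so single genes are uncertain.

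Their sum was 2257, 4492 and 3703 FPKM in the 6 hpf cells, 6035, 6241 and 3688 in the 11 hpf cells, and 1807, 1724 and 2045 in the 24 hpf cells. It was lower in all 24 hpf cells than in all earlier cells. The 6 genes naming H3 summed to 663 ± 213, 889 ± 266 and 279 ± 51.8 FPKM (SD, n = 3 cells of 1 embryo), a difference of -1.67 from 11 to 24 hpf with a spread of 0.49. The ratio of summed H3.3 to this sum was 6.11, 2.96 and 5.71 in the 6 hpf cells, 1.98, 2.74 and 1.60 in the 11 hpf cells, and 5.70, 4.34 and 3.88 in the 24 hpf cells. It was lowest in the 11 hpf cells, which lay below all others. The sum holds only genes with a hist symbol, so an H3 gene under any other symbol would be missing from it. These sums by type were added after the values of the single genes had been seen.

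Of 9 symbols of other variant and linker genes, 4 were in the table and 3 passed the filter. From 11 to 24 hpf, 2 of the 3 were higher past 2-fold with the cells apart, against 7.89% of all genes. Both of these, h2afy2 and h1fx, passed the filter only through the 24 hpf cells, where they were highest, so this count supports nothing by itself. h2afy2, a gene of macroH2A, a variant enriched on silent chromatin, was listed at 0 at 6 hpf, stood at 0.179, 3.31 and 34.5 FPKM in the 11 hpf cells, and reached 223, 103 and 153 in the 24 hpf cells, with a difference of 3.56 (spread 2.54). h1fx, a linker histone gene, was listed at 0 in all earlier cells except 11_2, at 10.4 FPKM, and was 20.6, 47.1 and 33.3 in the 24 hpf cells. h1m, the gene of the maternal linker histone of eggs and early embryos, was 2177, 2479 and 2114 FPKM in the 6 hpf cells, 1398, 1671 and 1298 in the 11 hpf cells, and 1157, 561 and 674 in the 24 hpf cells. Its cells stepped down at each stage. Its difference from 6 to 24 hpf was -1.50, beside -2.71 for h3f3b.1 ENSDARG00000020504. h2afy was listed at 0 in all cells.

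**Figure D4:**
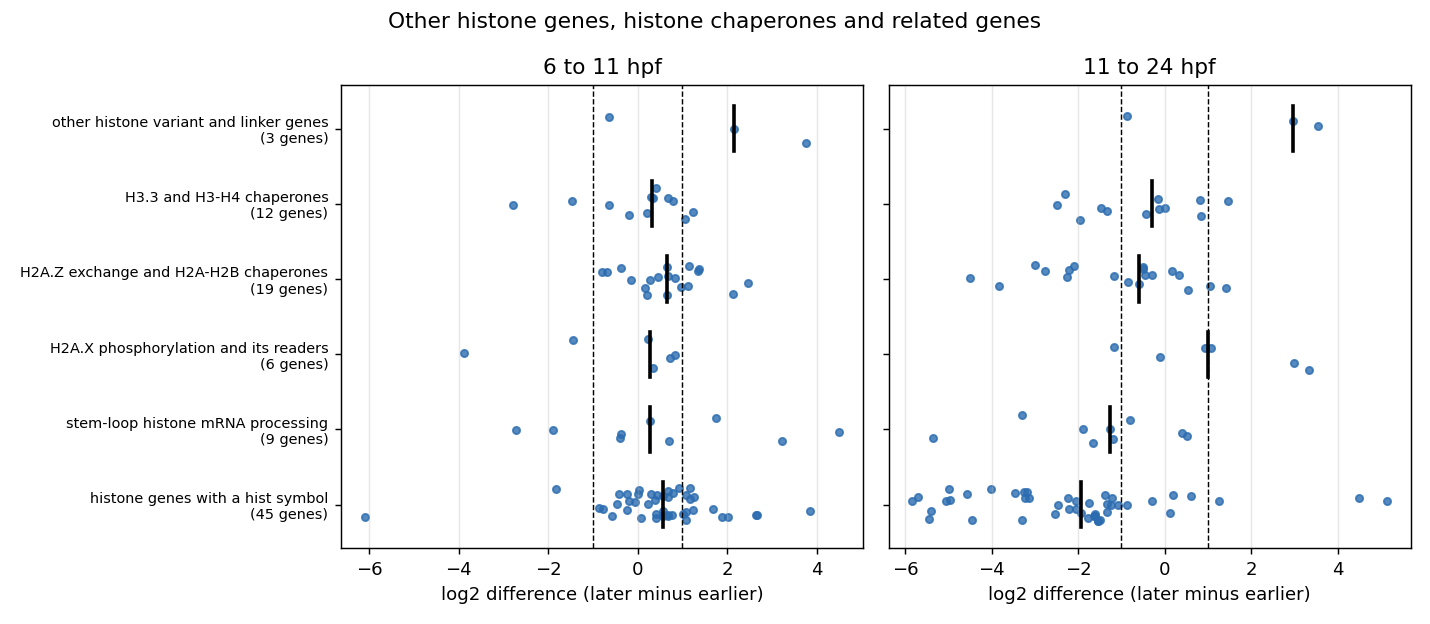
Log2 difference (later minus earlier) of the genes of 6 lists, 1 point per gene and 1 row per list, from 6 to 11 hpf and from 11 to 24 hpf, with black bars at the medians and dashed lines at 2-fold. The hist-symbol genes lay mostly to the left from 11 to 24 hpf, with a median of -1.94, whereas the lists of chaperones spread over both sides of 0.

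Chaperones that carry H3.3 or H3-H4 were next, and 12 of 17 symbols passed the filter. From 11 to 24 hpf, 1 was higher and 5 were lower past 2-fold, with the cells apart for 1 and 3 and a median of -0.29. The shares of all genes were 26.1% and 31.5%, and 7.89% and 9.79% with the cells apart, so the count of 5 in 12 is near the background. ubn1, 1 of the 5, passed the filter only through 11_3, at 14.0 FPKM, and its difference of -2.50 rests on that cell. Its part in the count therefore supports nothing by itself. atrx, which places H3.3 at repeats together with daxx, was 8.07, 7.39 and 7.50 FPKM in the 11 hpf cells, below all cells of both other stages. It was 39.0, 17.3 and 12.2 in the 6 hpf cells and 31.1, 18.7 and 19.5 in the 24 hpf cells. daxx was 52.5, 45.9 and 55.6 FPKM in the 6 hpf cells and 124, 132 and 69.3 in the 11 hpf cells, so the genes of this pair differed in direction between these stages. chaf1a and chaf1b encode subunits of CAF-1, the chaperone of replication-coupled H3. chaf1a was higher at 11 than at 6 hpf by 1.24 on the log2 scale (spread 0.49). chaf1b, with a difference of -1.47 (spread 0.90), and rbbp4, with -1.34 (spread 0.98), were lower at 24 than at 11 hpf with the cells apart. dek was lower too, at 77.0, 26.9 and 92.9 FPKM in the 11 hpf cells and at 20.7 and 16.9 in 24_2 and 24_3, with 24_1 listed at 0, but its difference of -2.30 was within the spread of 2.66. hira, the chaperone gene for H3.3 at active genes, was low in all cells, from 0 in 24_2 to 35.1 FPKM in 24_1.

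Among genes of H2A.Z exchange and of H2A-H2B chaperones, 19 of 22 symbols passed. From 11 to 24 hpf, 2 were higher and 8 lower past 2-fold, with the cells apart for 0 and 5 and a median of -0.60, against 26.1% and 31.5% of all genes, and 7.89% and 9.79% with the cells apart. From 6 to 11 hpf, 6 were higher and 0 lower, against 21.7% and 21.8%, with a median of 0.67. srcap, the ATPase of an H2A.Z-loading complex, and vps72, a subunit that binds H2A.Z, were listed at 0 in all 24 hpf cells. At 11 hpf srcap was 1.71, 6.85 and 8.75 FPKM and vps72 was 14.5, 8.80 and 41.5. vps72 passed the filter only with the 11 hpf cells counted, and it is also 1 of the 6 genes higher from 6 to 11 hpf (1.13). Its part in the counts of lower genes and in that count of higher genes therefore supports nothing by itself. ruvbl1, an ATPase shared by several such complexes, was 201, 235 and 208 FPKM in the 11 hpf cells and 9.24, 23.2 and 104 in the 24 hpf cells. npm1a, the gene of nucleophosmin, a nucleolar chaperone, was 1115, 1378 and 1511 FPKM in the 11 hpf cells and 79.5, 35.8 and 382 in the 24 hpf cells. supt16h, a gene of the chaperone FACT, was higher at 11 than at 6 hpf by 1.14 on the log2 scale (spread 0.78). Summed H2A.Z itself differed by 0.03 from 11 to 24 hpf.

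For H2A.X phosphorylation and its readers, 6 of 13 symbols passed, and 3 were higher and 1 lower past 2-fold from 11 to 24 hpf, against 26.1% and 31.5% of all genes, with a median of 1.01 against -0.08. rnf168, a ubiquitin ligase recruited to marked breaks, had its cells apart and was 22.9, 47.7 and 44.2 FPKM in the 24 hpf cells against at most 11.8 at 11 hpf. chek1, a checkpoint kinase gene, was 40.4, 47.7 and 193 FPKM in the 6 hpf cells and 8.07, 0.815 and 7.44 in the 11 hpf cells. The 9 genes found of 10 that process stem-loop transcripts all passed, and 0 were higher and 6 lower past 2-fold from 11 to 24 hpf, with the cells apart for 2 and a median of -1.27. Of all genes 31.5% were lower past 2-fold, and 9.79% were so with the cells apart. slbp, the gene of the protein that binds the stem-loop, was 512, 464 and 424 FPKM in the 11 hpf cells and 83.1, 224 and 272 in the 24 hpf cells. cpsf3, the gene of the nuclease that cuts the transcript, was 104, 17.8 and 27.2 FPKM in the 11 hpf cells and at most 0.711 at 24 hpf. It passed the filter only with the 11 hpf cells counted, so its part in the counts of lower genes supports nothing by itself. slbp2, an egg-type copy of slbp in fish, was 397, 365 and 261 FPKM in the 6 hpf cells and 183, 79.0 and 10.1 in the 11 hpf cells, a difference of -1.90 within a spread of 2.11. From 6 to 11 hpf, 3 of these 9 genes were higher and 2 lower past 2-fold, against 21.7% and 21.8% of all genes. The cells were also apart for 3 and 1, against 4.89% and 6.19% of all genes. The 3 higher genes were cpsf2, sympk and lsm10. Without the 11 hpf cells, where they are high in this comparison, cpsf2 and sympk would not have passed the filter. Their part in these counts therefore supports nothing by itself. cpsf2 went from 0 in all 6 hpf cells to 18.6, 30.2 and 16.4 FPKM in the 11 hpf cells. The difference of lsm10, 1.75, was within its spread of 2.38, while that of sympk, 3.23, was beyond its spread of 1.21.

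For each histone variant gene, the genes most alike were taken as those with the highest Pearson correlation of log2(FPKM+1) over the 9 cells among the 9329 genes. The 9 cells share their stages and embryos, and with so many genes searched high values arise easily, so these are descriptions. h3f3b.1 ENSDARG00000020504 was most like rac1a (r = 0.98), rrm2 (r = 0.98) and vox (r = 0.97). h3f3c was highly correlated with adad1 (r = 0.98) and rwdd1 (r = 0.95). For h2afx these were bsg, qtrt1 and mrpl54, with r from 0.95 to 0.97, and for h1f0 they were alpl, sdr16c5b and si:ch211-213a13.1, with r from 0.95 to 0.98. Like h1f0 itself, alpl, sdr16c5b and si:ch211-213a13.1 were each listed at 0 in every 6 hpf cell, in 11_1 and in 11_3. For h2afvb the genes most alike were cfl1, sf1 and med19b, with r from 0.89 to 0.96, and med19b was listed at 0 in most cells. For h2afva they were pim1, ap2s1 and crb3b, each with r = 0.98, and each of these was listed at 0 in 5 of the 9 cells. For the remaining H3.3 genes they were ndrg3b, psmb5 and ndufv2 (ENSDARG00000068434), si:ch211-79l20.4, psmc6 and denr (ENSDARG00000068436), and bcs1l, ttll4 and CIB1 (h3f3d). Between the histone variant genes themselves, h3f3b.1 ENSDARG00000020504 ran opposite to h1f0 (r = -0.83), to h3f3b.1 ENSDARG00000068436 (r = -0.78) and to h3f3c (r = -0.71).

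The label of the cells was set against marker genes. The 12 germline markers summed to 18092 to 32996 FPKM at 6 hpf, 20933 to 44495 at 11 hpf and 11564 to 13942 at 24 hpf. Reads of the transgene may count toward nanos3, which is among them. It was the highest of them in every cell, from 7573 FPKM in 24_2 to 24068.5 in 11_1. ddx4 and dnd1 were above 0 in all 9 cells. tdrd1 was listed at 0 in all 24 hpf cells, in 11_1 and in 11_2, and reached at most 6.71 FPKM. Among the 9 cells, piwil1 was listed at 0 in 4, piwil2 in 6 and tdrd6 in 2. The 10 muscle markers summed to at most 38.2 FPKM before 24 hpf and to 656, 2601 and 49.3 in 24_1, 24_2 and 24_3. Of the other lists, the 7 epidermal markers reached at most 229 FPKM (in 11_1), the 6 of endoderm and yolk 423 (in 24_2), the 6 neural symbols, of which 4 were in the table, 66.2 (in 11_2), and the 8 of endothelium and blood 6.28. The epidermal markers summed to 213, 74.1 and 129 FPKM in 24_1, 24_2 and 24_3. In 24_3, the 24 hpf cell with the fewest muscle transcripts, h3f3c stood at 597 FPKM, 46.6% of the H3.3 sum, and h3f3b.1 ENSDARG00000020504 at 469. Leaving out 24_1 and 24_2 leaves 1 cell at 24 hpf, which is not free of muscle or epidermal transcripts. The difference from 11 to 24 hpf was then 2.60 for h3f3c, -1.69 for h3f3b.1 ENSDARG00000020504, -5.36 for h2afx and 4.55 for h1f0. It was 0.13 for h3f3b.1 ENSDARG00000068436 and 1.13 for h3f3d. It changed sign for h3f3b.1 ENSDARG00000068434 (0.33 to -0.73), h2afva (0.29 to -0.07) and h2afvb (-0.14 to 0.19). Between 5771 genes (in 24_1) and 8148 genes (in 6_1) reached an FPKM of 1, and its part in values listed at 0 was not tested.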

How the data were processed

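Single PGCs of AB zebrafish at 6, 11 and 24 hpf were compared, with 3 cells from 1 embryo at each stage. By the submitters' processing notes, trimming was done with Trimmomatic, alignment to danRer10 (GRCz10) with HISAT2 2.0.5 and quantification with StringTie 1.3.3, and the authors deposited 1 FPKM value per gene and cell. Reads cannot be recovered from these values, so the depth of a gene is unknown and no counting interval can be given. The study's calls of differential expression were not repeated for that reason. All 9 columns of values matched a labelled cell, and 0 other columns of per-sample values were present.

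Values were analysed in Python 3.11.15 with numpy 2.4.6 and pandas 2.3.3, and plots were drawn with matplotlib 3.10.9. Stage means were compared on the scale of log2(FPKM + 1), which understates differences of genes with low levels, and a gene was kept if 3 or more cells had an FPKM of 1 or more. With 1 embryo per stage, no p-value or standard error was computed. The calculations were tested on simulated data. Genes were matched by symbol, and newer names were looked up by identifier, which matched for 8 of the 9 genes.

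The histone variant genes and the gene and marker lists were chosen with earlier results of these data known. Named beside the histone variant genes were, per list and pair of adjacent stages, up to 4 genes with the largest difference among those past 2-fold with the cells apart, and the 3 genes most correlated with each variant gene, of which 1 for h3f3c is not reported here. h1m, h2afy, hira, hist2h2l, ubn1 and HIST1H2AL ENSDARG00000051775 were named after their values were seen. Alternatives were pseudocounts of 0.1 and 10, the mean of log values over cells, rescaling to TPM or by median-of-ratios factors, and leaving out each cell in turn. Leaving out 24_1 and 24_2 together was chosen after seeing the data.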

Additional observations from a re-analysis of the deposited data

How the results depend on the processing

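No paired analysis was possible, because the replicate numbers only name the cells of 1 embryo per stage and link no cell across stages. No test was made. No difference of a histone variant gene past 2-fold changed sign under any alternative tried. Of the alternative values, 310 of the differences of single genes, 69 of the sums and all 84 of the shares moved by less than the spread, against 5 and 1 that moved by more. From 6 to 11 hpf, the count of genes higher past 2-fold, 1 as reported, was 0 with a pseudocount of 10 and 0 with the mean over cells of log values, and it ranged from 1 to 2 with a cell left out. It was 2 without 6_3 or without 11_1, as h3f3c then passed, with differences of 2.16 and 1.47. Without 11_2 it was 1, but of another gene, since h1f0 was then listed at 0 at both stages and h3f3b.1 ENSDARG00000068436 passed with 1.05. The count lower past 2-fold, 0 as reported, was 1 with median-of-ratios factors and ranged from 0 to 2 with a cell left out. It was 2 without 11_2, as h3f3b.1 ENSDARG00000020504 (-1.02) and h3f3d (-1.10) then passed. From 11 to 24 hpf, the count higher, 2 as reported, ranged from 2 to 3 with a cell left out. It was 3 with the mean of log values, which moved h3f3d from 0.68 to 2.08, and 3 without 24_1 and 24_2. From 6 to 24 hpf, the count higher, 3 as reported, was 4 with the mean of log values or without 6_3, and 2 without 24_1 and 24_2. The counts lower stayed at 2 in both comparisons. Summed H2A.Z from 6 to 24 hpf was -0.53 with median-of-ratios factors against -0.29 as reported. These factors also moved the median of all genes from -0.10 to -0.32, and relative to that median the values were -0.21 and -0.19. Summed H3.3 from 11 to 24 hpf ranged from -0.67 to -0.32 with a cell left out. The difference of h3f3b.1 ENSDARG00000068436 from 6 to 24 hpf was 1.61 with all cells and 0.87 without 24_1 and 24_2. For the lists, 65 counts of genes lower from 11 to 24 hpf stayed within 1.5 times and 7 did not, all 7 in the lists of other variant genes and of H2A.X phosphorylation, where the counts reported were 0 and 1. With 3 cells of 1 embryo per stage, a difference between embryos cannot be told apart from a difference between stages.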
